A study of Mus musculus with 3 samples.

Results

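The genes described here are those of RNA polymerase II, the enzyme that transcribes protein-coding genes, and of Mediator, the complex that links it to transcription factors. They were chosen by symbol: Polr2 followed by a letter from a to m, or Med followed by a digit, with at least 1 protein-coding transcript. The rule took 43 of the 55536 genes of the annotation, 13 for RNA polymerase II and 30 for Mediator. The symbols Med9os, an antisense gene listed with 0 counts, and Polr2k-ps, a pseudogene, match the same pattern but have no protein-coding transcript and were left out. RNA attached to chromatin was sequenced after ribosomal depletion in 3 libraries of primary macrophages grown from bone marrow of C57BL/6J mice. All 3 libraries are of the same condition: lipid A at 100 ng/ml for 12 h, a washout of 12 h, and lipid A at 100 ng/ml again for 90 min. Toll-like receptor 4 senses lipid A, the membrane anchor of lipopolysaccharide of bacteria. Sex and age of the mice were not collected, per the labels, and cells without lipid A were not analysed here. The levels below therefore describe macrophages restimulated with lipid A and show no response to it.

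RNA polymerase II, written Pol II below, is built around a pair of large subunits that form its active site, with smaller subunits for assembly, for the stalk and for jaw-like elements. Several small subunits are also part of RNA polymerases I and III. Mediator has a head and a middle that contact Pol II, a tail that contacts transcription factors, a central scaffold, and a kinase module that binds the rest reversibly. In macrophages, genes switched on by Toll-like receptors are transcribed by Pol II with Mediator at their enhancers and promoters. Chromatin-attached RNA is largely RNA that is being made or has not yet been released, so it holds many unspliced molecules.

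Counts in the gene table summed to 12671700, 21747001 and 16915406 in replicates 1, 2 and 3, made from 1 ug, 250 ng and 500 ng of starting RNA. The chosen genes held 21114, 32770 and 26657 of these counts, which was 0.169%, 0.151% and 0.158% of the counts in genes. Whether the replicates were separate cultures is not stated, so the spread given here, and each p-value, concerns these libraries and may be partly technical. Replicate 1 stood apart in the share of TPM held by protein-coding genes, 34.1% against 27.4% and 29.4%. TPM is a length-corrected level relative to all features of the library, and levels below are in TPM of the gene table, given as mean ± SD (n = 3 libraries) unless stated. The macrophage label was checked with markers: 14 of 14 macrophage markers reached 1 TPM in each library. Their median was 52.6 ± 5.77 TPM, and Adgre1, the F4/80 antigen, had 421.7 ± 65.5. Of 25 markers of other lineages 3 did so, Vwf with 25.5 ± 10.4, Alas2 with 4.43 and Cd4 with 1.81 TPM, and 7 were listed at 0 in all libraries.

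Transcripts of nearly all subunits were on chromatin. A level of 1 TPM or more in each library was reached by 40 of 43 genes (93.0%), against 41.1% of the 22028 protein-coding genes of the annotation. All 43 had a mean above that of at least 51.2% of protein-coding genes. A level of 10 TPM or more in each library was reached by 14 (32.6%), against 19.2% of protein-coding genes. Among genes at 1 TPM or more in each library the share was the smaller, 14 of 40 against 4221 of 9047. The 43 genes had a median of 7.79 ± 0.586 TPM, and the 9047 protein-coding genes at 1 TPM or more had a median of 11.0 ± 0.427 TPM. The range was wide, from 0.467 TPM for Med30 to 148.3 for Med15, and Med15 alone held 24.9%, 21.8% and 21.3% of the TPM of the 43 genes in replicates 1, 2 and 3. Together with Med12, Med13l and Med13 it held 51.8%, 46.1% and 45.6%.

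**Figure D1:**
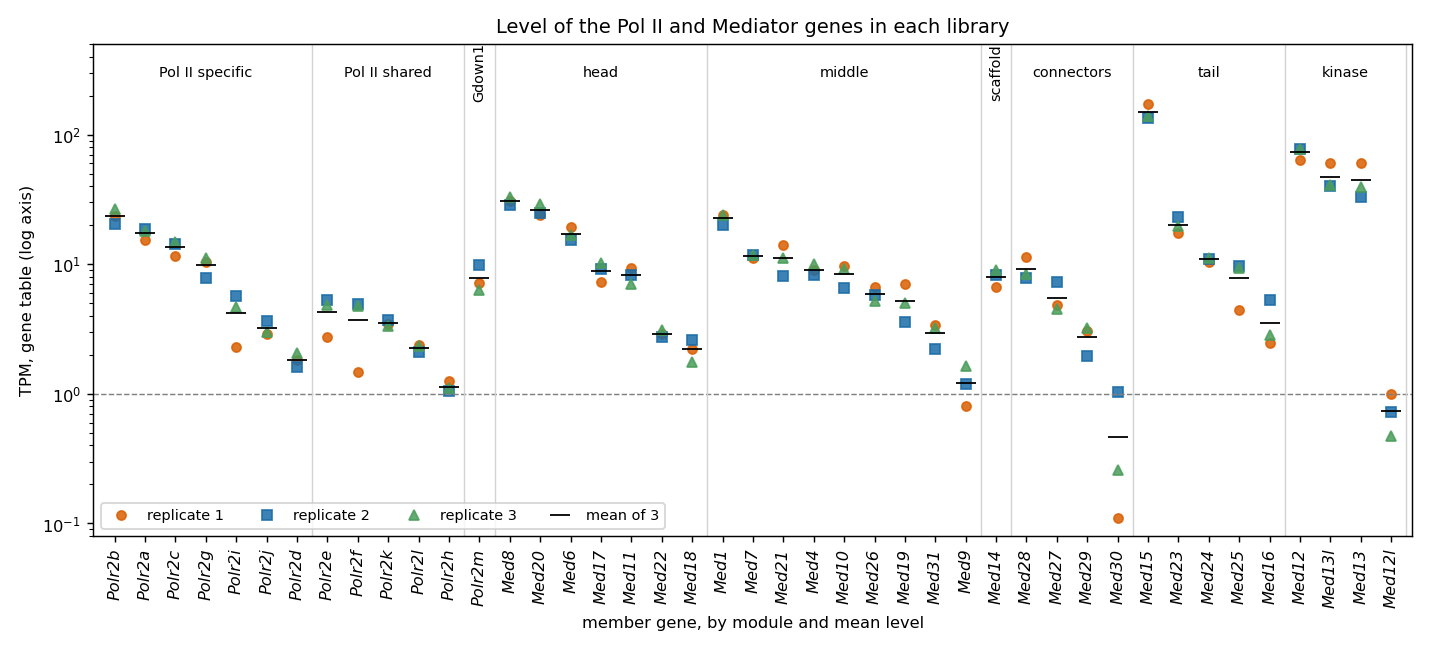
TPM of each Pol II and Mediator gene (log axis) in replicates 1, 2 and 3, with the mean as a black bar. Genes are grouped by module and ordered by mean, and the dashed line marks 1 TPM. Med15 and 3 kinase module genes lie above the rest, and Med30, Med12l and Med9 have a library at or under the line.

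Among the subunits that belong to Pol II alone, the catalytic pair had the highest levels in the gene table. Polr2b, the second-largest subunit, on chromosome 5 from 77310147 to 77349324 (mm10), had 23.7, 20.4 and 26.7 TPM in replicates 1, 2 and 3. Polr2a, the largest subunit, whose C-terminal repeats are phosphorylated during transcription, lies on chromosome 11 from 69733997 to 69758637 and had 15.5, 18.6 and 18.0 TPM. Within each library Polr2a was below Polr2b. The difference on the log2(TPM + 1) scale was -0.42 ± 0.25. An exact sign-flip permutation test, two-sided, gave p = 0.25, the smallest value possible with 3 libraries. The sign depended on the table: it was 0.02 in the transcript table made from reads directly, called the other table below. There Polr2g, with 31.8 TPM, lay above Polr2a with 21.5 and Polr2b with 21.3. In the transcripts behind the gene table, 75.8% ± 2.90 of Polr2b was on transcripts annotated with a retained intron. The largest part was on Polr2b-203, of only 261 bases, with 10.02, 11.04 and 15.09 TPM in replicates 1, 2 and 3. In counts the order was reversed, with 271, 460 and 393 for Polr2b and 745, 1752 and 1312 for Polr2a. The protein-coding transcript Polr2b-201 had 5.34, 5.6 and 6.0 TPM in replicates 1, 2 and 3. The protein-coding Polr2a-201 had 10.17, 12.85 and 12.61 TPM, so for these transcripts Polr2a was the higher in each library.

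Next in order was Polr2c, which forms an assembly heterodimer with Polr2j, with 13.6 ± 1.78 TPM. Its partner had 3.20 ± 0.422 TPM, so the gene levels of the heterodimer were far apart. Protein-coding transcripts took 39.6% ± 9.39 of Polr2c, with 5.04 ± 1.71 TPM on Polr2c-201, and 100% of Polr2j. Gene levels were also far apart for the stalk, where Polr2g had 9.81 ± 1.75 TPM and Polr2d 1.84 ± 0.231. Polr2d was the lowest of the Pol II-specific genes, with 1.82, 1.62 and 2.08 TPM in replicates 1, 2 and 3. Polr2i, a small subunit at the jaw with a role in transcription fidelity, had 2.30 TPM in replicate 1 but 5.66 and 4.68 in replicates 2 and 3. Its exons share 26.8% of their bases with Tbcb on the opposite strand, which had 8.88 ± 4.61 TPM. The sources used here do not give the strand setting of the counting, so reads of such a pair cannot be told apart. Polr2m encodes Gdown1, a protein that binds Pol II and makes it depend on Mediator, and had 7.19, 9.89 and 6.37 TPM.

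Subunits shared with RNA polymerases I and III had a lower median than the Pol II-specific ones in every library, though their ranges overlapped. Polr2e was the highest of them, with 2.73 TPM in replicate 1 and 5.28 and 4.83 in replicates 2 and 3. At the bottom was Polr2h, with 1.26, 1.05 and 1.10 TPM from 8, 12 and 11 counts. The order differed in the other table, where Polr2f with 11.1 TPM and Polr2k with 7.24 lay above Polr2e with 3.04, and Polr2l with 1.51 was below Polr2h with 2.21. Between them lay Polr2f with 3.73 ± 1.95, Polr2k with 3.50 ± 0.196 and Polr2l with 2.27 ± 0.148 TPM. Polr2f had the widest relative range among the Pol II genes, with 1.48 TPM in replicate 1 against 4.97 and 4.73. The median was 3.13 ± 0.689 TPM over the 5 shared subunits and 9.81 ± 1.75 over the 7 specific ones, a log2 difference of -1.39 ± 0.44, negative in 3 of 3 libraries. No p is given for such medians over chosen genes. Polr2k and Polr2l share 21.6% and 20.9% of their 50-base words with transcripts of other genes, Polr2c 11.2% and Polr2h 8.72%, so how reads were assigned to these genes is uncertain.

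Over all 13 Pol II genes the median was 4.30 ± 1.25 TPM, and over the 30 Mediator genes 8.88 ± 0.55. The log2 difference was -0.92 ± 0.42 and lower in 3 of 3 libraries. All 13 Pol II genes had 1 TPM or more in each library, while the 3 genes that did not were Mediator genes.

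In the Mediator head, which contacts Pol II, 3 of 7 genes had 10 TPM or more in each library. Med8, a head subunit that anchors part of the module, led with 31.0, 28.4 and 32.9 TPM in replicates 1, 2 and 3. The lowest was Med18, part of the movable jaw, with 2.22, 2.61 and 1.77 TPM, although in the other table Med22 with 2.90 was below Med18 with 3.66. Its jaw partner Med20 had 26.0 ± 2.85 TPM, again a pair of physical partners with gene levels far apart. Of Med20, 84.6% ± 2.50 was on transcripts annotated with a retained intron. Its protein-coding transcript Med20-201 had 3.01, 4.12 and 4.98 TPM, much closer to Med18, whose transcripts are all protein-coding. Med6 had 17.1 ± 1.98, Med17, the head's central subunit, 8.93 ± 1.47, Med11 8.23 ± 1.14 and Med22 2.91 ± 0.171 TPM. Exons of Med20 overlap those of the same-strand gene Gm20517, which had 4.70 ± 1.64 TPM, and the division of reads between them is uncertain.

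Among the middle genes Med1 was the highest, with 23.8, 20.1 and 24.0 TPM in replicates 1, 2 and 3. It encodes the subunit through which many nuclear receptors bind Mediator. Med9 was the lowest, with 0.81, 1.20 and 1.63 TPM, and 1 of its 3 libraries was under 1 TPM. Med7 and Med21, which form the hinge of the middle module, had 11.6 ± 0.299 and 11.1 ± 2.95 TPM, levels that overlapped between libraries. Of the further middle subunits, Med4 had 9.09 ± 0.881, Med10 8.45 ± 1.70, Med19 5.20 ± 1.71 and Med31 2.95 ± 0.632 TPM. Med26, a subunit that recruits elongation factors, had 6.71, 5.83 and 5.24 TPM. The antisense gene Gm17435, which shares 12.7% of the exon bases of Med26, had 20.8 ± 6.81 TPM, more than Med26 itself. For Med10 the overlap was larger: 92.8% of its exon bases are also exons of the opposite-strand lincRNA Gm26819, which had 5.15 ± 1.01 TPM. In all, exons of 22 of 43 genes overlap those of another gene. The share over all protein-coding genes was not counted, so this is no trait of the chosen genes.

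Med14, the scaffold that runs through the complex and holds its modules together, had 6.70, 8.25 and 9.00 TPM in replicates 1, 2 and 3. The subunits between head and tail were low, with a median of 4.14 ± 0.396 TPM over 4 genes. Med28 was the highest of them with 11.5, 7.83 and 8.36 TPM, followed by Med27 with 5.54 ± 1.49 and Med29 with 2.75 ± 0.696. The lowest of all 43 genes was Med30, with 0.11, 1.03 and 0.26 TPM from 1, 9 and 3 counts, so its level is set by few reads. In the other table Med9 with 0.905 and Med12l with 1.00 TPM were lower than Med30.

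The tail, through which many activators reach Mediator, held the highest gene of all. Med15, a target of lipid-regulating and other transcription factors, lies on chromosome 16 from 17651208 to 17732891 on the minus strand. It had 170.9, 135.1 and 138.9 TPM in replicates 1, 2 and 3, above every other member in each library. On the log2(TPM + 1) scale it lay 1.01 ± 0.34 above Med12, the next in order. In counts it was not the highest: Med15 had 3268, 4704 and 3836 counts and Med13 had 4979, 5573 and 5016. The order by TPM therefore rests also on the lengths assigned to the transcripts. In the other table Med15 had 164.0 ± 19.7 TPM and was again the highest.

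Other tail genes were lower. Med23, which binds activators of the Ets family, had 20.1 ± 2.86 and Med24 had 10.9 ± 0.423 TPM. Med25, known as the target of a viral activator, had 4.40 TPM in replicate 1 and 9.76 and 9.27 in replicates 2 and 3. Its SD of log2(TPM + 1), 0.56, was the largest of the genes averaging at least 5 TPM, followed by Med13 with 0.43 and Med19 with 0.40. For Med19 the levels were 7.0, 3.59 and 5.02 TPM. Med16 was the lowest tail gene, with 2.47, 5.30 and 2.86 TPM. The tail had a median of 10.9 ± 0.423 TPM and the head one of 9.59 ± 0.587. On the log2 scale the tail was higher by 0.17 ± 0.07, above 0 in each of the 3 libraries, but it was -0.15 in the other table and -0.43 with Med27 to Med30 counted in the tail.

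The kinase module, whose kinase is Cdk8 or its paralog Cdk19 with cyclin C, held the next 3 genes in order. Med12, which activates the kinase, lies on chromosome X from 101274030 to 101297465 and had 63.9, 77.8 and 77.5 TPM in replicates 1, 2 and 3. Med13 and its paralog Med13l encode the subunit that ties the module to the rest of Mediator. Med13, on chromosome 11 from 86267033 to 86357602, had 60.1, 33.2 and 39.8 TPM. Med13l, on chromosome 5 from 118560679 to 118765438, had 60.7, 39.8 and 40.6 TPM. Both were highest in replicate 1, where Med12 was lowest. The levels of the Med13 paralogs were close: Med13 minus Med13l was -0.10 ± 0.14 on the log2(TPM + 1) scale, below 0 in each of the 3 libraries, and the exact sign-flip permutation test gave p = 0.25. That difference was 0.03 in the other table and 0.62 in TMM-scaled CPM, which have no length correction.

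The Med12 paralogs were far apart. Med12l, on chromosome 3 from 59005825 to 59318682, had 1.00, 0.73 and 0.47 TPM in replicates 1, 2 and 3, and its highest library lay below the lowest of Med12. Med12 minus Med12l was 5.42 ± 0.37 on the log2(TPM + 1) scale, above 0 in each of the 3 libraries, and the exact sign-flip permutation test gave p = 0.25. The longest of these genes, Med12l spans 312.9 kb and gave 110, 138 and 62.5 counts, so its low TPM is not a matter of a few reads. No 50-base word of Med12l is shared with another gene, while 8.84% of those of Med12 are shared with Gm21986, a same-strand gene at 0.527 ± 0.144 TPM. Words were compared on the transcribed strand only. On the opposite strand, exons of Igsf10 overlap 15.3% of the exon bases of Med12l, and Igsf10 had 0.02 TPM. P2ry14, a receptor gene of the opposite strand that lies within Med12l introns, had 62.2, 18.4 and 22.5 TPM. Replicate 1 was the highest library for both genes.

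With 45.7 ± 12.9 TPM, the median of the 4 kinase module genes was above that of the 26 other Mediator genes, 8.48 ± 0.508 TPM. On the log2 scale the difference was 2.27 ± 0.41, above 0 in each of the 3 libraries. It was 1.26 when the module's other genes were added, which the symbol rule leaves out: Cdk8 had 21.1 ± 3.08, the cyclin C gene Ccnc 15.3 and Cdk19 1.15 ± 0.336 TPM. The kinase paralogs thus also had a high and a low gene.

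The sequences before the starts of Med12, Med13 and Med13l, the highest genes of that module, are shown so that their base composition can be seen beside their levels. They are from RefSeq (GRCm38.p6), read 5′ to 3′ on the gene's strand, and stop before the first base that the annotation places in an exon. Each is 150 bases long with CpG dinucleotides in capitals, at chrX:101273880-101274029 on the plus strand for Med12, chr11:86357603-86357752 on the minus strand for Med13 and chr5:118560529-118560678 on the plus strand for Med13l.
Med12: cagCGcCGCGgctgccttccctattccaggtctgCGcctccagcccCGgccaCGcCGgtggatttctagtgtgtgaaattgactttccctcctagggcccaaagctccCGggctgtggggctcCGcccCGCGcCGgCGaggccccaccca
Med13: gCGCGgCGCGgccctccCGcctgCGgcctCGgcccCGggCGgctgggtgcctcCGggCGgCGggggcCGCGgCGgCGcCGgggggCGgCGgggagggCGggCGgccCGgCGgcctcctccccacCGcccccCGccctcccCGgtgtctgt
Med13l: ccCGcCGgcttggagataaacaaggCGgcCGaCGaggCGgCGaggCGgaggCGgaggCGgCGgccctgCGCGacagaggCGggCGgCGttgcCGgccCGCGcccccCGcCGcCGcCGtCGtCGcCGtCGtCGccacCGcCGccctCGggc
They hold 13, 26 and 31 CpG, and 69.3%, 90.0% and 82.0% of their bases are G or C. For the low gene Med12l the 250 bases before the RefSeq start lie in annotated exons, so no sequence is shown. They hold 26 CpG and the 250 bases of Med12 hold 22. In this pair the lower gene thus had more CpG, though its window is exon sequence. RefSeq windows of 250 bases were found for 36 of 43 genes, 42 windows in all since some genes have several starts. Their median was 15 CpG, against 6 over all 32851 windows of the table. The letters CCGGAAG, a form of the ETS motif, stood on either strand in 19.0% of the 42 windows and in 6.91% of all windows. For GGGCGG, the Sp1 motif, the shares were 64.3% and 32.7%, for CCAAT, the NF-Y motif, 35.7% and 33.8%, and for TATAAA, the TATA box, 11.9% and 12.4%. ATGGCGG, a form of the YY1 motif that shares its last 5 letters with the Sp1 motif, was in none of the 42 windows and in 2.21% of all. Windows of the same gene can overlap, and a match of letters is a description of the window only.

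Levels of neighbouring genes in the order often overlapped. Of 42 pairs of neighbours by mean TPM, 10 differed by more than the SD of their difference and in the same direction in all 3 libraries. Those were mostly at the top: Med15 over Med12, Med12 over Med13l, Med13 over Med8, Med8 over Med20, Med20 over Polr2b and Med23 over Polr2a. The other pairs were Polr2c over Med7, Polr2k over Polr2j, Polr2d over Med9 and Polr2h over Med12l. The order was set by the means of these same libraries, so the 10 pairs are a description and none was tested. Pairs of equal level can also meet this limit by chance. The order among the many genes between 2 and 10 TPM is thus mostly not resolved.

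Libraries differed by gene. Of the 40 genes at 1 TPM or more in each library, the highest library had under 1.5 times the lowest for 27 (67.5%), against 52.8% of protein-coding genes at that level, and over 2 times for 4, against 16.5%. Over all 43 genes it was over 2 times for 7, namely Polr2f, Polr2i, Med25, Med16, Med12l, Med9 and Med30. Replicate 1 was the highest of the libraries for 13 of the 40 genes at 1 TPM or more (32.5%) and the lowest for 15 (37.5%), against 38.2% and 40.6% of all protein-coding genes at that level. Relative to the mean of replicates 2 and 3, replicate 1 was at 0.17 for Med30, a gene of few counts. It stood at 0.31 for Polr2f, 0.44 for Polr2i, 0.46 for Med25 and 0.54 for Polr2e. It was at 1.67 for Med12l, 1.65 for Med13, 1.63 for Med19 and 1.51 for Med13l. Replicate 1 was also the library with the most starting RNA, the fewest counts and the highest protein-coding share, and the part of these in the levels was not tested. In edgeR, the gene-wise coefficient of variation was above the trend over mean level for 5 of the 40 genes tested (12.5%), against 29.5% of protein-coding genes. These were Polr2f, Med16, Med25, Med24 and Med12l. Med24 was just above, with 0.261 against a trend of 0.256. Its counts were 241, 680 and 496 in replicates 1, 2 and 3, while its TPM varied little, with 10.4, 11.1 and 11.2. The median coefficient was 0.242 for the genes described here and 0.25 for protein-coding genes, so their typical spread was close to that of genes in general.

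Other groups of the transcription machinery, from lists chosen with earlier results of these data known, lay on either side. Kinases and phosphatases of the Pol II C-terminal repeats had a median of 24.6 ± 4.28 TPM over 11 genes, from Ctdp1 with 3.99 ± 0.436 to Cdk9, the pause-release kinase, with 104.8 ± 6.37. Pausing and elongation factors had 17.1 ± 2.27 over 16 genes, from Supt4a with 4.84 ± 0.715 to Paf1 with 48.5 ± 7.08. Of these 7 lists, only those of the C-terminal repeats and of elongation had a median above that of detected protein-coding genes in the gene table. In the other table the general transcription factors, with 16.7 TPM, were also above it, at 15.9. General transcription factors had a median of 8.21 ± 1.75 over 18 genes, from Gtf2h4 with 3.25 ± 0.821 to Gtf2a2 with 35.1 ± 4.87. Close to them were the Integrator genes with 8.15 ± 1.03 over 14 genes, from Ints5 with 2.66 ± 0.614 to Ints6 with 32.1 ± 9.24. The TAF subunits of TFIID had 6.49 ± 0.591 over 13 genes, from Taf5 with 1.88 ± 0.173 to Taf1 with 27.8 ± 1.94. Subunits of RNA polymerases I and III had 6.37 ± 0.186 over 19 genes, from Polr3g with 0.487 ± 0.281 to Polr3c with 29.9 ± 3.98. Pol II assembly factors had 3.76 ± 1.11 over 6 genes, from Gpn3 with 1.66 ± 0.605 to Rpap2 with 7.64 ± 1.83. These lists hold 95 different genes, since Cdk7 and Rpap2 are each in 2 lists, and 93 of them had 1 TPM or more in each library.

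**Figure D2:**
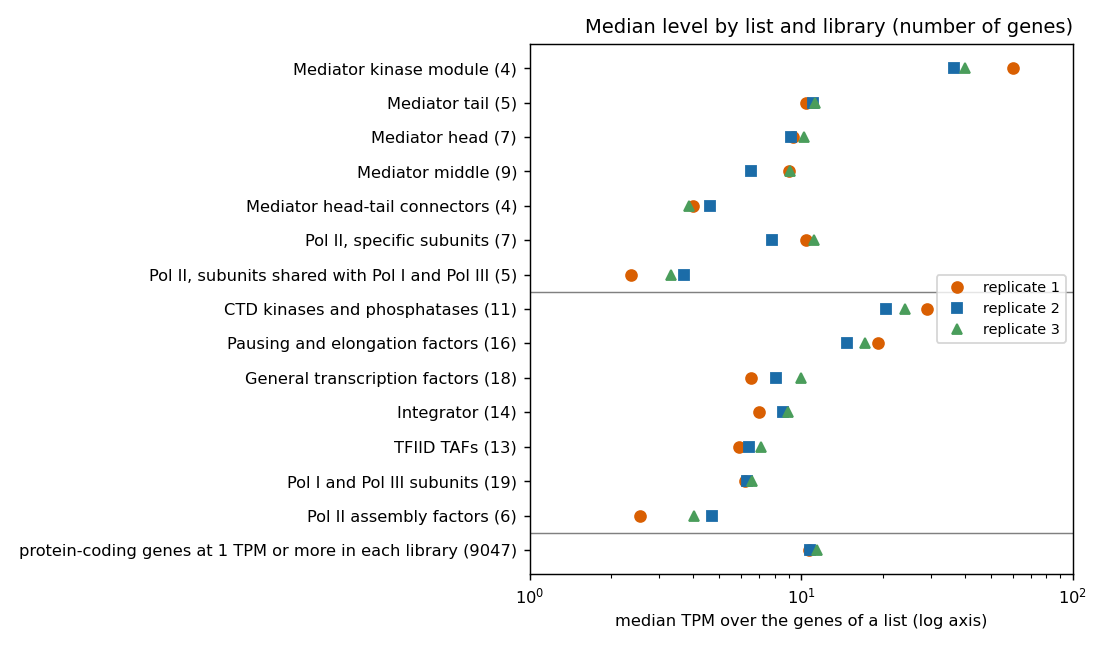
Median TPM (log axis) over the genes of each Mediator or Pol II module, of other transcription lists and of detected protein-coding genes, with 1 point per library and the number of genes in brackets. The 4 kinase module genes that the symbol rule takes, without Ccnc, Cdk8 and Cdk19, lie highest in all 3 libraries. The shared Pol II subunits and assembly factors lie lowest together with the head-tail connectors.

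Some annotated transcripts of these genes have a retained intron. In genes with such a transcript much of the RNA was assigned to it, as in protein-coding genes in general. Retained-intron transcripts are annotated for 24 of 43 genes, all 24 of them among the 40 at 1 TPM or more in each library. Of the 9047 protein-coding genes at that level, 5881 have such a transcript. The median share they took was 48.3% ± 0.879, and over 5881 protein-coding genes chosen the same way it was 48.1% ± 2.41. The share was over 50% in each library for 8 of 24 (33.3%), against 36.9% of those 5881 genes, so the members were close to genes in general. Transcripts annotated as protein-coding took a median of 42.5% ± 2.39, against 41.7% ± 2.75. Intronic reads outside annotated transcripts are not part of these shares.

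The highest shares were in Polr2e, with 100%, 76.9% and 83.7% in replicates 1, 2 and 3, Med20, with 84.6% ± 2.50, and Med24, with 82.9% ± 4.93. The transcript with the most TPM was Polr2e-203 with 39.4% ± 13.1 of its gene, Med20-203 with 44.6% ± 5.94 and Med24-204 with 46.5% ± 7.10, all retained-intron transcripts. At the other end were Med14 with 13.6% ± 3.15, Polr2i with 16.0% ± 14.4 and Med13 with 20.6% ± 5.06. Their main transcripts, all protein-coding, were Med14-202 with 48.9% ± 5.87, Polr2i-202 with 51.2% ± 7.0 and Med13-201 with 78.9% ± 5.14. Polr2i shows how few reads set such a share: from 7 counts in replicate 1 it was 0%, and from 26 and 20.7 counts in replicates 2 and 3 it was 27.7% and 20.3%. The kinase module pair Med13 and Med13l had close levels but a different makeup, with Med13l at 40.3% ± 3.30 and each of its libraries above each of Med13. In the other table they were close, with 32.1% for Med13 and 34.4% for Med13l. Med12 had 41.0% ± 2.31.

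**Figure D3:**
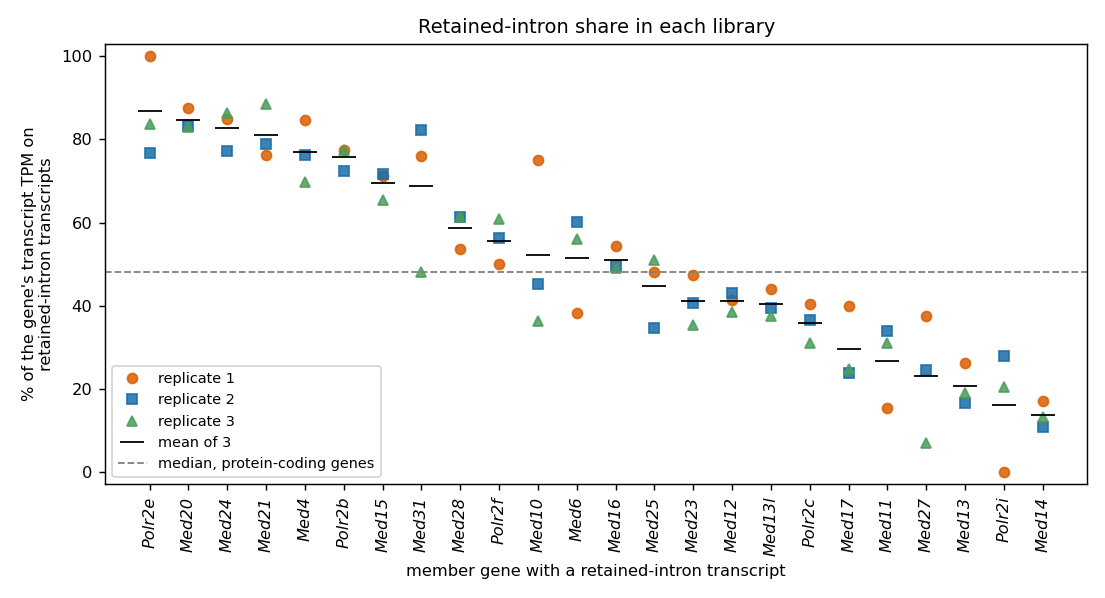
Share (%) of the transcript TPM of a gene on its retained-intron transcripts, for the 24 genes with such a transcript, in replicates 1, 2 and 3 with the mean as a black bar. The dashed line is the median of protein-coding genes, 48.1%. Genes run from Polr2e at a mean of 86.8% to Med14 at 13.6%, and Med10, Med31 and Med27 spread widely between libraries.

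Among all 232 annotated transcripts of the 43 genes, the one with the highest mean TPM was a retained-intron transcript in 14 genes, a protein-coding transcript in 28 and a processed transcript in 1, Med8-210 with 34.9% ± 2.88. Among genes at 1 TPM or more in each library it was a retained-intron transcript in 14 of 40 (35.0%), against 31.4% of protein-coding genes, and a protein-coding one in 25 (62.5%), against 59.7%. It took under 50% of its gene in 20 of those 40 genes, against 56.4%, so these shares were close to those of genes in general. For Med15 it was Med15-209, a retained-intron transcript, with 21.5% ± 0.761, and retained-intron transcripts together took 69.4% ± 3.55 of Med15. The catalytic pair differed: Polr2b had 51.0% ± 7.67 on the retained-intron transcript Polr2b-203, and Polr2a had 68.3% ± 2.35 on the protein-coding Polr2a-201, with no retained-intron transcript annotated. A retained-intron transcript was also first, with under 50%, in Polr2f, Med6, Med16, Med23 and Med25, from 23.3% in Med23 to 47.5% in Med6. In Med16 this rests on TPM: by mean share the protein-coding Med16-204, with 36.0% ± 5.31, was above the retained-intron Med16-206, with 35.4% ± 2.12. A protein-coding transcript was first with under 50% in Polr2c, Polr2g, Polr2j, Med1, Med7, Med10, Med12, Med13l, Med14 and Med27, from 28.8% for Med12-203 to 48.9% for Med14-202.

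Introns of the long genes hold other annotated genes, which give a further reading of RNA inside them. In 11 of the 43 genes, 27 genes lie wholly within introns, and 16 of these had 1 TPM or more in each library. Of the 27, 23 are not protein-coding, and 14 of those reached that level. These counts were not made for other protein-coding genes, so they are a description only. Med13l holds 5 same-strand genes of 1 exon, of the annotation type TEC, used for transcripts that await experimental checking. They lie 42.0, 57.6, 83.7, 126.9 and 146.7 kb from its start and had 43.7 ± 18.2, 31.6 ± 8.20, 19.7 ± 5.90, 21.8 ± 3.59 and 14.0 ± 4.48 TPM in that order. The nearest, Gm43788, had 64.2, 29.7 and 37.1 TPM and the farthest, Gm43051, had 19.1, 12.3 and 10.7, so the nearest was above the farthest in 3 of 3 libraries. The fall was not steady, since Gm43052 at 126.9 kb was above Gm43274 at 83.7 kb in replicates 2 and 3. Their levels were of the size of that of Med13l itself, from 29.8% to 92.9% of its mean TPM. Reads of an intron of Med13l and of such a gene cannot be told apart.

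**Figure D4:**
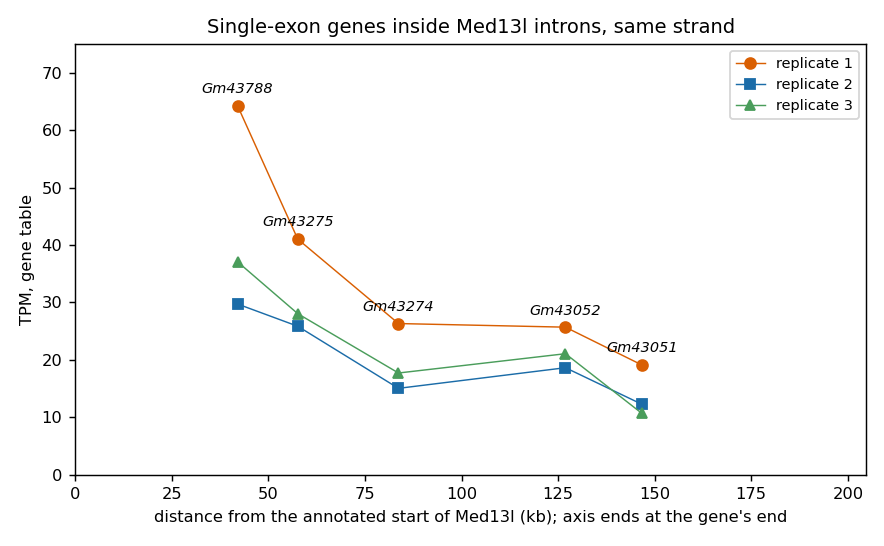
TPM of 5 annotated genes of 1 exon that lie in introns of Med13l on its strand, against their distance in kb from the annotated start of Med13l, with a line per library. Levels run from 64.2, 29.7 and 37.1 TPM at 42.0 kb to 19.1, 12.3 and 10.7 TPM at 146.7 kb, and replicate 1 is the highest at each.

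Introns of other members also hold genes with signal, annotated on either strand. Med6 introns hold the same-strand pseudogene Gm16570, with 7.55, 9.53 and 8.66 TPM, and Polr2b introns the same-strand pseudogene Gm42758, with 2.05, 3.42 and 3.09 TPM from 2, 4 and 3 counts. Med15 introns hold the opposite-strand pseudogenes Rpl26-ps4, with 19.3 ± 5.47 TPM, and Gm49684, with 13.9 ± 4.84. Med26 holds the pseudogene Gm35857, whose 22.6 ± 11.6 TPM came from 4, 7 and 2 counts on 178 bases. Antisense Brip1os, which shares 7.38% of the exon bases of Med13, had 9.25 ± 2.95 TPM.

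Level and gene length had a positive correlation, though the longest genes did not have the highest median. Across the 43 genes, mean log2(TPM + 1) and the log of the gene's span had a Spearman rho of 0.44 and a Pearson r of 0.38, given as a description since genes share libraries and are not independent replicates. Over the 9047 detected protein-coding genes rho was 0.18, while the 43 genes also include some that were not detected. The median was 4.25 TPM over the 20 genes spanning under 10 kb, 12.3 over the 16 from 10 to 50 kb and 7.98 over the 7 of 50 kb or more. Those 7 run from Med12l with 0.733 TPM to Med15 with 148.3, so the longest genes held both a very low and the highest level.

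The tables gave a similar order of the 43 genes, with a Spearman rho of 0.92 across genes. The other table was at least 2-fold higher in mean TPM for 7 of the 41 genes that average 1 TPM or more (17.1%), against 18.5% of protein-coding genes, and at least 2-fold lower for none, against 0.32%. Med16 had 12.5 ± 1.22 TPM there against 3.54 ± 1.53, and Polr2g 31.8 ± 10.9 against 9.81 ± 1.75. The remaining 5 were Med27 with 16.7 against 5.54, Polr2f with 11.1 against 3.73, Polr2k with 7.24 against 3.50, Med6 with 34.9 against 17.1 and Med1 with 45.4 against 22.6. Levels of these genes thus differed between the tables, and the cause was not tested. For detected protein-coding genes the other table was also higher, with a median of 15.9 against 11.0 TPM. Med30, under the limit, had 2.51 TPM there against 0.467.

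**Figure D5:**
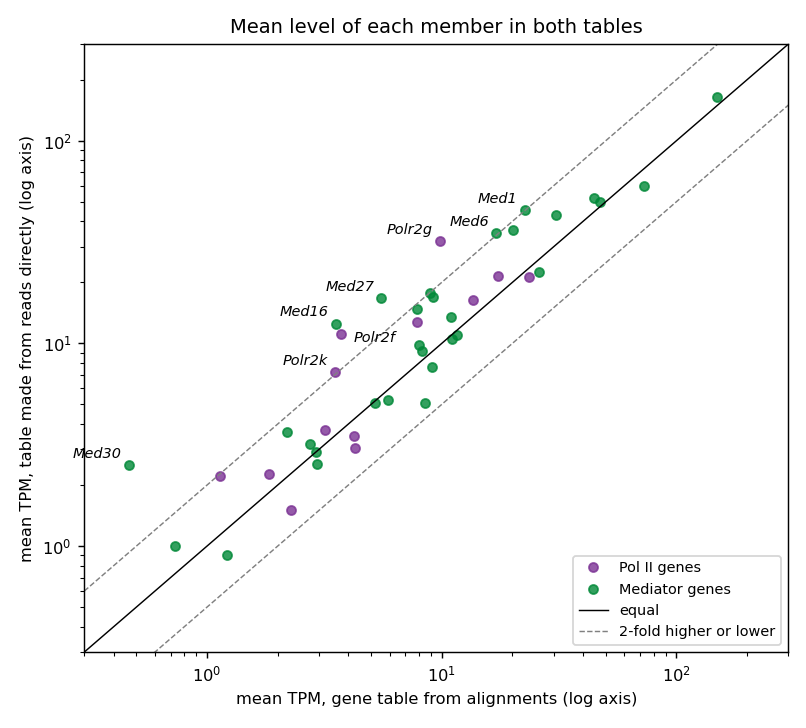
Mean TPM of each gene in the gene table from alignments (x, log axis) and in the table made from reads directly (y, log axis), with the line of equality and dashed lines at 2-fold. Genes at least 2-fold higher in the second table are named, and none lies below the lower dashed line.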

How the data were processed

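Total RNA of the chromatin fraction was measured in 3 libraries of 1 condition, grouped by the replicate number in the labels. Per the file headers, the authors deposited a gene and a transcript table from transcriptome alignments, with expected counts, effective lengths in bases and TPM, and a transcript table from reads directly, with estimated counts and TPM. Per the labels, the assembly was mm10, and identifiers matched GENCODE M21. Aligner, quantifiers and strand setting: not given in the sources used here. Rows outside the annotation's genes held 1.34%, 0.292% and 0.416% of counts and were left out of library sizes.

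Members were matched by gene identifier (43 of 43). Members and lists were chosen with earlier results of these data known. A gene counted as detected at 1 TPM in each library. Differences were taken within each library on log2(TPM + 1), which understates differences of low genes. Differences of single genes were tested by exact sign-flip permutation, two-sided, over 3 libraries, and medians over lists had no test. The retained-intron share was computed from the transcript TPM of genes at 1 TPM or more in each library. Expected counts were rounded for edgeR 4.0.16 (TMM, an intercept-only design, tested on simulated data), with DESeq2 1.42.0 size factors as an alternative, in R 4.3.3. The rest was done in Python 3.11.15 with pandas 2.3.3, numpy 2.4.6, matplotlib 3.10.9 and SciPy 1.17.1. With 1 condition no contrast between groups could be tested. A count of 0 allows up to 3 counts, and counting error is the only error that floor covers.

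Every member is named. By rule, levels in each library are given for the highest and lowest gene of each module, for the kinase module, for Polr2a, Polr2b, Polr2m, Med1, Med14, Med15 and Med26 and for the 3 genes at a mean of at least 5 TPM whose SD of log2(TPM + 1) was largest. Transcripts are given for the 3 highest and 3 lowest retained-intron shares and where the top transcript took under 50%, and other lists by their highest and lowest gene. Other genes named, mostly overlapping or intronic ones, were chosen after their values were seen. Alternatives were a pseudocount of 0.1, the other table, TMM-scaled CPM without length correction, TPM rescaled to protein-coding genes, other limits, means in place of medians, and each replicate left out. Motif letters were searched in RefSeq windows of 250 bases (GRCm38.p6), and 50-base words in M21 transcripts. No table of protein sequences was used here.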

Additional observations from a re-analysis of the deposited data

How the results depend on the processing

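Of 79 values under other settings, 61 kept their sign (single-gene differences), stayed within the replicate spread (medians) or within 1.5 times (counts), 12 moved further and 6 changed sign, and the cause of these changes was not tested. In TMM-scaled CPM, which have no length correction, the Pol II minus Mediator difference was -1.82, kinase module minus other Mediator genes 4.33 and tail minus head 1.67. There Med13 minus Med13l was 0.62 and Polr2a minus Polr2b 1.71, both of opposite sign. In the other table the shared minus specific difference was -2.03, tail minus head -0.15, Med13 minus Med13l 0.027 and Polr2a minus Polr2b 0.018, the last 3 of opposite sign. There the retained-intron share was 54.3% and the coding-transcript share 33.2%. With means over members, kinase minus other Mediator genes was 1.32, tail minus head 0.64 and the retained-intron share 51.1%. With Ccnc, Cdk8 and Cdk19 the kinase module difference was 1.26, and with Med27 to Med30 in the tail the tail minus head difference was -0.43. At 5 TPM or more the retained-intron share was 43.6% over 17 genes. With TPM rescaled to protein-coding genes, 28 instead of 14 genes had 10 TPM or more. Rescaling raises the TPM of every protein-coding gene, and no share over all of them is given for it.

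Leaving out each replicate moved no result by more than its spread: the Pol II minus Mediator difference ran from -1.11 to -0.69, Med12 minus Med12l from 5.26 to 5.62 and the detected count from 40 to 41. Med12 minus Med12l was 6.5 with a pseudocount of 0.1 and 4.94 in the other table, beyond its spread of 0.37 but of the same sign. With 2 libraries the smallest sign-flip p is 0.5. Above the edgeR trend were 5 genes, 6 with DESeq2 size factors and 7 without the filter on low counts. No paired analysis was possible because all 3 libraries are of 1 condition. Depth limits Med30, Polr2d, Polr2h, Polr2i and Polr2k, which had under 30 counts in each library.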
